A study of Homo sapiens with 18 samples.

Results

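The lysosome and V-ATPase genes examined here are 37 protein-coding genes, picked by their symbols from the 58870 genes of the deposited count matrix. They were chosen as lysosome genes regulated by MITF and the related TFE factors. They comprise 5 lysosomal membrane proteins, 8 cathepsins and other proteases, 8 glycan-degrading enzymes (glycosidases and a sulfatase) and 3 genes of lipid handling. The other 13 are genes of the proton pump, of which 4 belong to its V0 sector, 8 to its V1 sector and 1 is an accessory protein. They were measured by RNA sequencing in the human melanoma lines WM164, SKMEL28 and A375. Each line had been transduced with a lentivirus in which the EF1α promoter drives either MAFG, a small MAF transcription factor, or green fluorescent protein (GFP) as the control, and selected with blasticidin. The 6 groups, WM164 with GFP, WM164 with MAFG, SKMEL28 with GFP, SKMEL28 with MAFG, A375 with GFP and A375 with MAFG, had 3 libraries each, 18 in all. All groups, controls included, thus carry a lentiviral insert and blasticidin resistance. The cells are pools of transduced cells, and the labels do not say whether the libraries of a group came from separate cultures, so that p-values measure the spread between these libraries, which may be technical.

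Lysosomes are the acidic compartments in which proteins, glycans and lipids taken up from outside or delivered by autophagy are degraded. The V-ATPase acidifies them: its cytosolic V1 sector hydrolyses ATP and turns the V0 sector, through which protons cross the membrane. TFEB, TFE3, TFEC and MITF form the MiT/TFE family of transcription factors and bind E-box-like elements in the promoters of many lysosomal genes (the CLEAR network). In pigment cells MITF is the main family member. It also drives the genes of the melanosome, an organelle related to the lysosome.

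The sum of counts per library ranged from 20122172 to 39025042. Libraries of 1 group correlated at 0.970 to 0.985 (Pearson's r over genes), and no pair of them agreed within sampling noise. The library of replicate 1 of A375 with MAFG stood farthest from its group, with a mean chi-square per gene of 68.7 and 96.7 against its replicates, compared with 5.90 to 30.2 over all other pairs of 1 group. MAFG itself, in CPM (counts scaled to a common library size), was higher in every MAFG library than in every GFP library of its line: 24.2, 27.1 and 21.7 CPM with GFP against 52.9, 52.4 and 45.0 with MAFG in WM164, 25.1, 24.7 and 19.3 against 37.2, 34.2 and 35.7 in SKMEL28, and 26.3, 27.3 and 36.5 against 60.3, 53.8 and 42.8 in A375. The log2 fold change was 1.04 in WM164 (adjusted p = 6.37e-08), 0.64 in SKMEL28 (adjusted p = 1.28e-04) and 0.80 in A375, where it did not pass the test (adjusted p = 0.0655, but 0.00082 by DESeq2). On log2(TPM + 1) and log2(TPM + 0.1) (TPM values as deposited, scaled by transcript length and by the total of each library) the log2 fold changes of MAFG were larger, 2.71 and 3.05 in WM164, 1.86 and 2.07 in SKMEL28 and 2.33 and 2.55 in A375, where limma called the change on both scales (adjusted p = 0.000749 and 0.0028). All 10 markers of keratinocytes, other epithelia, immune cells, endothelium and liver stayed under 1 CPM in every library of all 3 lines. Of the melanocytic markers, PMEL, TYR, MLANA and SOX10 stood at 124.5 CPM or more in every GFP library of WM164 and SKMEL28, whereas in A375 with GFP TYR and MLANA had 0 counts in every library, PMEL had at most 12 and SOX10 was at 6.93 to 11.5 CPM (normalized over 18 libraries). SLC45A2, a transporter of the melanosome, likewise stood at 52.4 to 64.1 CPM in the GFP libraries of WM164 and SKMEL28. TYRP1, a melanosomal enzyme, did not follow this pattern: it was at 52.5 to 62.5 CPM in SKMEL28 with GFP, but at 0 to 0.198 CPM in WM164 with GFP, below the 0.547 to 0.761 CPM of A375 with GFP.

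In WM164 cells, MAFG overexpression was accompanied by lower mRNA of most lysosome and V-ATPase genes. At an adjusted p of 0.05 or less (quasi-likelihood F test of edgeR, Benjamini-Hochberg over 15919 genes), 25 of the 36 tested members were lower and 0 were higher, and 11 did not pass the test. DESeq2 also called 25 lower and 0 higher, and at an unadjusted p under 0.05 there were 26 members, all with a negative log2 fold change. The share of all genes under that unadjusted p was not computed. At the adjusted p, 15.6% of all tested genes were lower and 16.2% higher. The median log2 fold change of the tested members was -0.25, against 0.00 over all genes (-0.0015). In 26 members all 3 MAFG libraries lay below all 3 GFP libraries, as they did in 20.9% of all genes. CTSZ was not tested in this line, since its libraries held 3, 0 and 0 counts with GFP and 0, 0 and 0 with MAFG. As these are bulk libraries, fewer cells expressing a gene and less RNA per cell cannot be told apart.

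The changes were small: only CTSK passed the study's limit of a fold change above 2 together with the adjusted p, which 6.94% of all genes passed. They also depended on the scale. On the deposited TPM values, 3 members, ASAH1, CD63 and CTSK, were called lower on the log2(TPM + 1) scale and 1, CTSK, on the log2(TPM + 0.1) scale, and the median of the members was -0.06 on both, with all genes shifted by 0.14 and 0.16. LAMP1, LAMP2, GLB1, GUSB, PSAP and ATP6V1C1, lower by counts, had log2 fold changes of 0.00 to 0.08 there. Nuclear protein-coding genes made up 22.3 to 26.0% of TPM in the GFP libraries and 26.5 to 28.2% in the MAFG libraries of this line. With TPM rescaled to those genes 10 members were called lower, whereas edgeR on the counts of those genes alone called 25, and a fit of all 18 libraries together called 14.

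The membrane proteins were lower in 4 of 5. CD63, a tetraspanin of late endosomes and melanosomes (chromosome 12 from 55725323 to 55729707, GRCh38, GENCODE 44), fell most clearly, from 822, 813 and 841 CPM in the GFP libraries to 551, 553 and 556 in the MAFG libraries (log2 fold change -0.58, standard error (SE) 0.05, adjusted p = 4.31e-08). The groups lay far apart. MCOLN1, the lysosomal calcium channel TRPML1, stood at 15.3, 14.3 and 14.1 CPM in the GFP libraries and 10.9, 11.3 and 10.3 in the MAFG libraries, also without overlap (log2 fold change -0.43, SE 0.10, adjusted p = 0.0027). LAMP1 and LAMP2, the abundant glycoproteins of the lysosomal membrane, were lower by log2 fold changes of -0.18 and -0.18 (adjusted p = 0.0184 and 0.0354), calls that ended without replicate 1 of the MAFG libraries (adjusted p = 0.109 and 0.0849) or replicate 3 of the GFP libraries (0.057 and 0.104), and for LAMP2 also without 3 other single libraries. NPC1, which exports cholesterol from the lysosome, overlapped between the groups, at 63.8, 69.1 and 67.4 CPM in the GFP libraries and 63.0, 66.6 and 59.5 in the MAFG libraries (adjusted p = 0.363).

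Of the 7 proteases tested, 4 were lower. CTSK, cathepsin K, a collagen-degrading cysteine protease and a known target of MITF in osteoclasts (chromosome 1 from 150794880 to 150809577), had the largest change of all tested members in WM164, from 19.4, 21.9 and 21.7 CPM with GFP to 9.99, 7.65 and 10.3 with MAFG (log2 fold change -1.17, SE 0.11, adjusted p = 2.74e-07), a 2.25-fold decrease. Every MAFG library was well under every GFP library. CTSL, the cysteine protease cathepsin L, stood at 54.4, 53.2 and 54.4 CPM in the GFP libraries and 33.9, 38.2 and 36.2 in the MAFG libraries (log2 fold change -0.58, SE 0.07, adjusted p = 3.41e-06). CTSB, cathepsin B, stood at 502, 543 and 516 CPM in the GFP libraries and 383, 409 and 376 in the MAFG libraries (log2 fold change -0.42, SE 0.05, adjusted p = 9.00e-06). Neither overlapped. CTSD, the aspartic protease cathepsin D, was at 308, 275 and 263 CPM in the GFP libraries and 222, 219 and 207 in the MAFG libraries (log2 fold change -0.39, SE 0.06, adjusted p = 9.16e-05). CTSA, which protects the sialidase and β-galactosidase from degradation, CTSF and the tripeptidyl peptidase TPP1 did not pass the test (adjusted p = 0.246, 0.108 and 0.352).

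Among the glycan-degrading enzymes 5 of 8 were lower. The sialidase NEU1 moved most, from 38.6, 41.0 and 40.7 to 29.1, 26.4 and 25.7 CPM (log2 fold change -0.57, SE 0.08, adjusted p = 1.38e-05). HEXA, the α subunit of β-hexosaminidase, and SGSH, the sulfatase of heparan sulfate breakdown, had log2 fold changes of -0.35 and -0.34 (adjusted p = 2.24e-04 and 0.00437), and GUSB and GLB1 of -0.23 and -0.19 (adjusted p = 0.00745 and 0.0335). The call of GLB1 ended in 5 of the 6 fits with 1 library left out (adjusted p = 0.0504 to 0.112). GAA, the acid α-glucosidase, stood at 122, 124 and 106 CPM in the GFP libraries and 125, 128 and 98.8 in the MAFG libraries (log2 fold change -0.00, adjusted p = 0.99). GLA and NAGLU did not pass the test either. In lipid handling, ASAH1, the acid ceramidase, fell from 119.9, 125 and 131 CPM to 84.9, 87.2 and 90.2 (log2 fold change -0.52, SE 0.06, adjusted p = 1.31e-06), and PSAP, the precursor of the saposins, from 965, 1067 and 967 to 878, 906 and 801 (log2 fold change -0.21, SE 0.06, adjusted p = 0.00981). NPC2, the soluble partner of NPC1, was at 100.1, 99.0 and 104 CPM in the GFP libraries and 98.8, 104 and 102 in the MAFG libraries (adjusted p = 0.909).

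Of the 13 V-ATPase genes, 10 were lower in WM164, with a median log2 fold change of -0.29. ATP6V0C, the proton-binding c subunit of the V0 ring, stood at 305, 267 and 289 CPM in the GFP libraries and 207, 208 and 215 in the MAFG libraries (log2 fold change -0.45, SE 0.06, adjusted p = 7.09e-06). ATP6AP1, an accessory protein needed to assemble the pump, stood at 138, 139 and 134 CPM in the GFP libraries and 106, 110.3 and 94.5 in the MAFG libraries (log2 fold change -0.40, SE 0.06, adjusted p = 5.73e-05). In both, the groups did not overlap. The other called subunits, ATP6V0A1, ATP6V0D1, ATP6V1A, ATP6V1B2, ATP6V1C1, ATP6V1E1, ATP6V1F and ATP6V1H, had log2 fold changes between -0.37 and -0.19. With 1 library left out the call of ATP6V1A ended in 5 of the 6 fits (adjusted p = 0.0658 to 0.146), that of ATP6V1C1 without replicate 3 of the GFP libraries (0.0501) and that of ATP6V1F without replicate 1 of the MAFG libraries (0.0543). ATP6V0E1, ATP6V1D and ATP6V1G1 did not pass the test, with log2 fold changes of 0.01, -0.06 and -0.12.

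**Figure D1:**
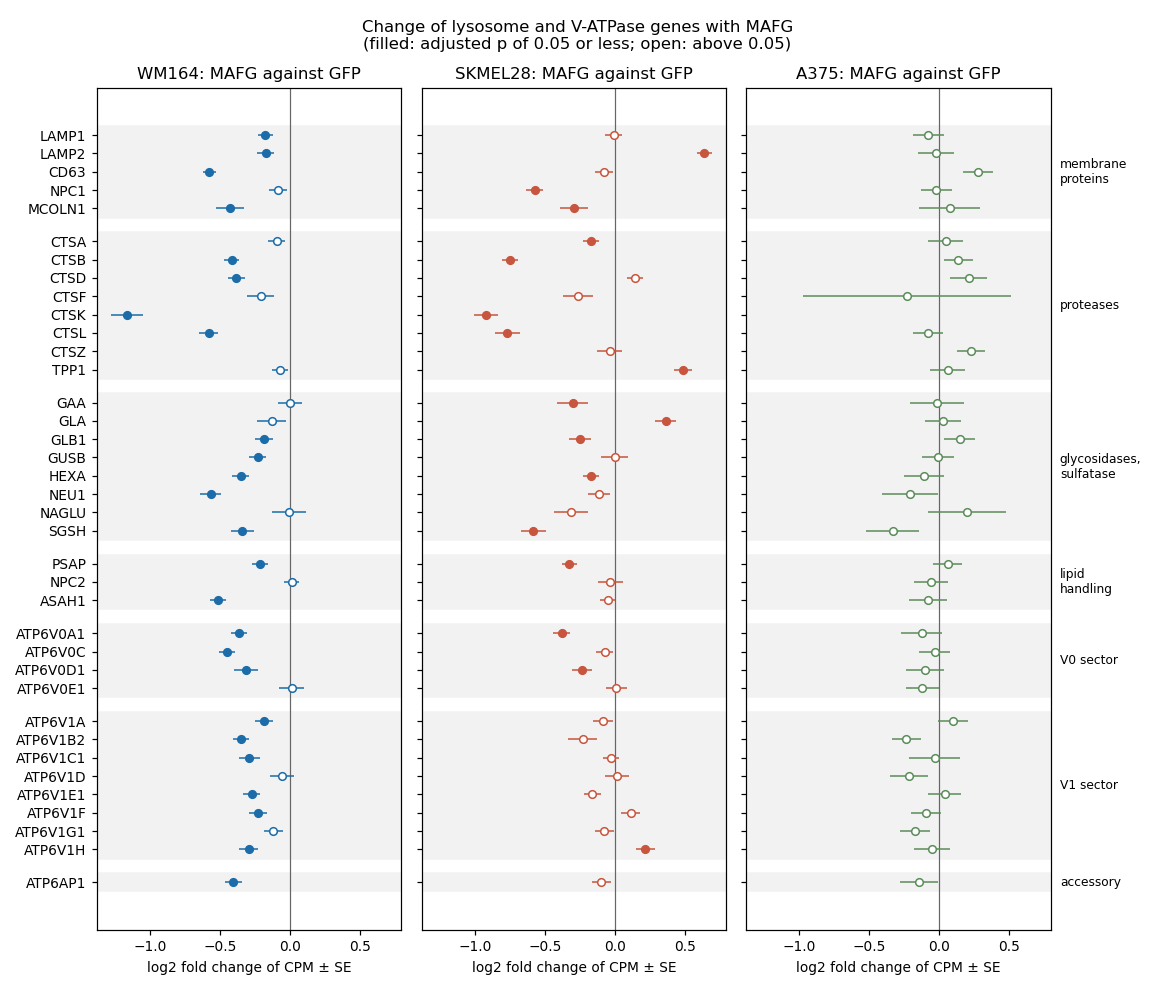
Log2 fold change of CPM, MAFG against GFP, with its SE for each of the 37 members, grouped by role, in WM164, SKMEL28 and A375 cells (3 libraries per group; filled points have an adjusted p of 0.05 or less). WM164 has 25 filled points, all to the left of 0, SKMEL28 has 13 to the left and 4 to the right, and A375 has none; CTSZ in WM164 and CTSK in A375 were not tested.

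In SKMEL28 cells, members moved in both directions with MAFG. All 37 were tested, and 13 were lower and 4 higher, among 15523 genes of which 15.3% were lower and 14.6% higher. The 4 higher were thus no more than the share of all genes. The median log2 fold change of the members was -0.10, that of all genes -0.01. On TPM the median of the members was lower, -0.32 and -0.33 with the pseudocounts of 1 and 0.1 and -0.20 rescaled to nuclear protein-coding genes, with all genes shifted by -0.14, -0.17 and -0.04. No member passed a fold change of 2, which 4.74% of all genes passed. In 15 members all MAFG libraries lay below all GFP libraries, as in 21.9% of all genes. The count of lower members fell to 7 without replicate 1 of the GFP libraries or without replicate 3 of the MAFG libraries, and likewise to 7 in a fit of all 18 libraries, and to 4 on TPM rescaled to nuclear protein-coding genes. On log2(TPM + 1) there were 13 lower and 2 higher.

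The 4 members that rose were LAMP2, TPP1, GLA and ATP6V1H. LAMP2 (chromosome X from 120426148 to 120469365) rose from 380.4, 360.0 and 394 CPM with GFP to 578, 598 and 594 with MAFG (log2 fold change 0.64, SE 0.06, adjusted p = 4.47e-07). TPP1, which removes tripeptides from the ends of proteins (chromosome 11 from 6612768 to 6619448), rose from 571, 564 and 608 to 749, 826 and 868 CPM (log2 fold change 0.49, SE 0.06, adjusted p = 2.61e-05). Both were higher in every MAFG library than in any GFP library. GLA, the α-galactosidase A that is deficient in Fabry disease, was at 30.6, 29.2 and 28.4 CPM in the GFP libraries and 40.4, 37.1 and 36 in the MAFG libraries (log2 fold change 0.37, SE 0.08, adjusted p = 0.00173). ATP6V1H, the regulatory H subunit of V1, was at 53.4, 52.6 and 60.1 CPM in the GFP libraries and 63.6, 67.7 and 61.9 in the MAFG libraries (log2 fold change 0.22, SE 0.07, adjusted p = 0.0246), a call that ended with any of 4 of the 6 libraries left out (adjusted p = 0.0526 to 0.115). On the log2(TPM + 1) scale LAMP2 and TPP1 kept their call and on log2(TPM + 0.1) only LAMP2 did.

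Of the cysteine proteases, CTSB, CTSL and CTSK fell, while CTSF and CTSZ did not pass the test (adjusted p = 0.0727 and 0.813). CTSB (chromosome 8 from 11842524 to 11869533) stood at 635, 590.0 and 614 CPM in the GFP libraries and 365, 347 and 381 in the MAFG libraries (log2 fold change -0.75, SE 0.06, adjusted p = 1.03e-07). CTSL (chromosome 9 from 87724051 to 87731469) stood at 212, 179 and 220.3 CPM in the GFP libraries and 107, 115 and 138 in the MAFG libraries (log2 fold change -0.77, SE 0.09, adjusted p = 9.98e-06). CTSK stood at 50.8, 41.1 and 45.0 CPM in the GFP libraries and 22.6, 24.7 and 25.2 in the MAFG libraries (log2 fold change -0.92, SE 0.09, adjusted p = 1.09e-06). For each of these the MAFG libraries lay below all GFP libraries, and all 3 were called lower in each of the 16 alternative fits, those with 1 library left out included. CTSD, by contrast, stood at 1368, 1271 and 1359 CPM in the GFP libraries and 1452, 1469.5 and 1501 in the MAFG libraries, without overlap and without passing the test (adjusted p = 0.0612). CTSA was lower by a small step (log2 fold change -0.17, adjusted p = 0.0404).

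NPC1 (chromosome 18 from 23506184 to 23586506) fell from 148, 152 and 134 CPM with GFP to 95.5, 99.6 and 97.0 with MAFG in SKMEL28 (log2 fold change -0.57, SE 0.06, adjusted p = 3.70e-06). SGSH was at 31.7, 37.6 and 32.4 CPM in the GFP libraries and 23.5, 23.2 and 21.0 in the MAFG libraries (log2 fold change -0.58, SE 0.09, adjusted p = 1.24e-04). PSAP was at 875, 839 and 812 CPM in the GFP libraries and 671, 663 and 684 in the MAFG libraries (log2 fold change -0.32, SE 0.05, adjusted p = 3.13e-04). The groups of these 3 genes did not overlap. MCOLN1, GLB1, HEXA and GAA were lower by log2 fold changes of -0.29, -0.25, -0.17 and -0.30, with adjusted p-values of 0.039, 0.0206, 0.0417 and 0.0466. These 4, CTSA and ATP6V0D1 each lost the call when some single library was left out. Of the 13 V-ATPase genes 2 were lower, ATP6V0A1, the membrane-anchored a subunit (log2 fold change -0.38, SE 0.06, adjusted p = 1.69e-04), and ATP6V0D1 (log2 fold change -0.23, SE 0.07, adjusted p = 0.0221). Of the others 1 was higher and 10 did not pass the test. Over all genes in this line 15.3% were lower and 14.6% higher, so that the 2 lower of 13 were near the share of all genes.

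**Figure D2:**
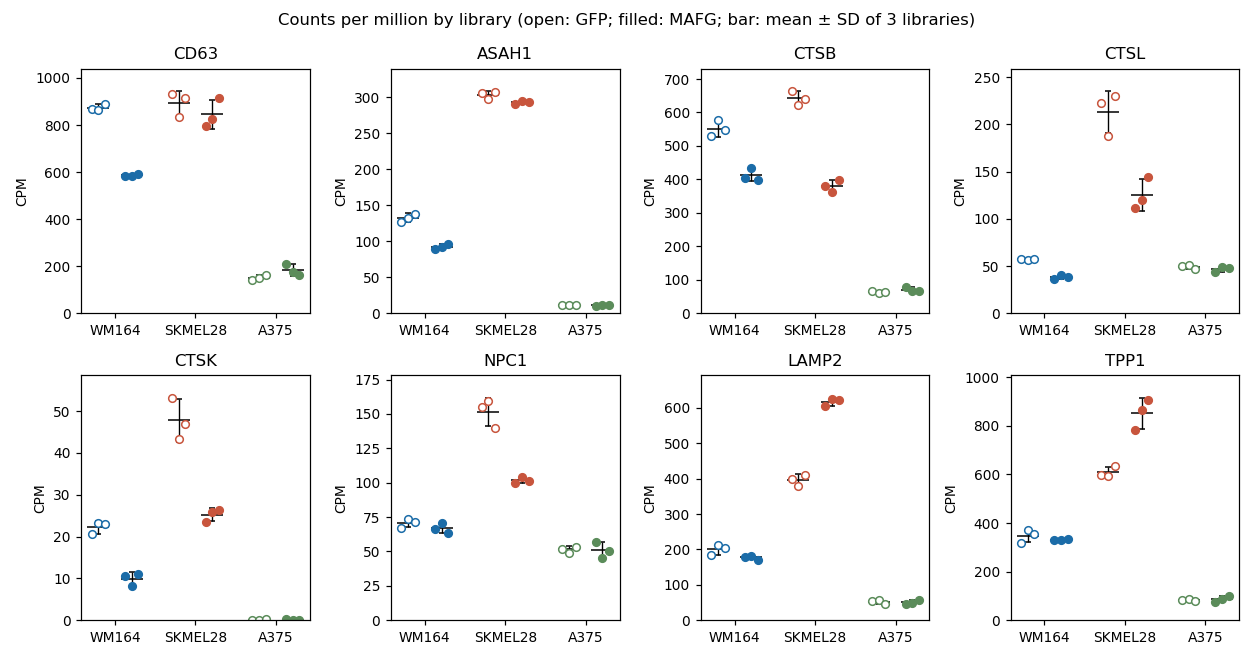
CPM, normalized over all 18 libraries, of 8 members in each library (open points GFP, filled points MAFG, bar the mean ± SD of 3 libraries; the vertical axes start at 0). CD63 and ASAH1 step down in WM164, NPC1 steps down and LAMP2 and TPP1 step up in SKMEL28, CTSB, CTSL and CTSK step down in both, and A375 is lowest for all but CTSL.

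Set side by side, 36 members were tested in both WM164 and SKMEL28. Of these, 10 were lower in both, namely MCOLN1, CTSB, CTSK, CTSL, GLB1, HEXA, SGSH, PSAP, ATP6V0A1 and ATP6V0D1. Among the 10, GLB1 in WM164 and MCOLN1, GLB1, HEXA and ATP6V0D1 in SKMEL28 lost the call when some single library was left out. LAMP2 and ATP6V1H were lower in WM164 and higher in SKMEL28. Another 13 were called only in WM164, 5 only in SKMEL28 and 6 in neither. The share of all genes in each of these classes was not computed. The difference of the responses was tested itself, as a contrast in 1 model of all 18 libraries and 18767 genes. WM164 differed from SKMEL28 in 9 members, more negative in WM164 in 7 and more positive in 2, where 6.32% and 7.39% of all genes were called. LAMP2 had a difference of -0.82 on the log2 scale (SE 0.12, adjusted p = 6.15e-05), ASAH1 of -0.47 (adjusted p = 0.00118), TPP1 of -0.56 (adjusted p = 0.00321), CD63 of -0.50 (adjusted p = 0.00613) and ATP6V1H of -0.51 (adjusted p = 0.00751). CTSD and GLA were the other 2 that were more negative in WM164. In NPC1 and CTSB the response was more negative in SKMEL28, by 0.49 (adjusted p = 0.00622) and 0.34 (adjusted p = 0.0362). The call of CTSB ended in 8 of the 12 fits with 1 library left out (adjusted p = 0.0607 to 0.107) and that of GLA in 7 (0.0509 to 0.0788), and both ended without the count filter. For CTSK and CTSL no difference between these lines was called: the fitted differences were -0.25 (SE 0.34) and 0.19 (SE 0.13). The 9 calls became 14 with the libraries of these lines alone, and 3, 2 and 5 on log2(TPM + 1), log2(TPM + 0.1) and rescaled TPM.

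**Figure D3:**
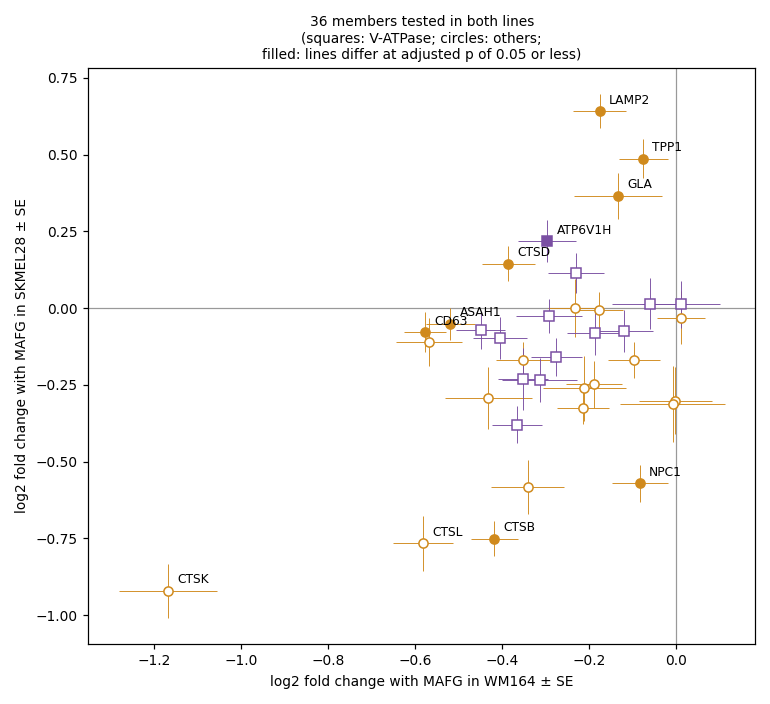
Log2 fold change with MAFG in WM164 (horizontal) against that in SKMEL28 (vertical), with SE, for the 36 members tested in both lines (squares V-ATPase genes, circles others; filled where the difference between the lines has an adjusted p of 0.05 or less). LAMP2 and TPP1 lie highest, and to the left of 0 on the horizontal axis, and CTSK, CTSL and CTSB lie low on both.

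In A375 cells no member was called with MAFG. Of the 36 tested, 0 were higher and 0 lower by edgeR, and 0 by DESeq2 and under every other setting run, among 15779 genes of which 0.78% were higher and 0.0634% lower (0.665% past both limits). At an unadjusted p under 0.05 there were 3 members, CD63, CTSZ and ATP6V1B2. The share of all genes under that unadjusted p was not computed, and these 3 are listed without being called. CD63 was at 156, 166 and 179 CPM in the GFP libraries and 225, 198 and 184 in the MAFG libraries (adjusted p = 0.637). CTSZ was at 115, 104 and 117 CPM in the GFP libraries and 137, 132 and 124 in the MAFG libraries (adjusted p = 0.79). In both the MAFG libraries lay above the GFP libraries, whereas ATP6V1B2 was at 62.3, 63.5 and 59.0 CPM in the GFP libraries and 52.8, 48.7 and 55.3 in the MAFG libraries, the other way round (adjusted p = 0.767). In 31 of the 36 members the groups overlapped, a count for which the share of all genes was not computed in this line. CTSK was not tested, at 0, 0 and 12 counts with GFP and 13, 0 and 6 with MAFG. CTSB, which fell in both other lines, was at 73.3, 68.0 and 70.4 CPM in the GFP libraries and 84.8, 73.0 and 74.8 in the MAFG libraries. The log2 fold changes ran from -0.33 to 0.28 with a median of -0.03, and their median SE was 0.13, against 0.06 in WM164 and 0.07 in SKMEL28, so that changes of the size seen in most members of WM164 were not detectable here. The count was also 0 without replicate 1 of the MAFG libraries, the one farthest from its group. SOX10, a transcription factor of the melanocyte lineage that acts on MITF, rose in the same libraries, at 7.69, 9.03 and 12.8 CPM with GFP and 152, 115 and 111 with MAFG (log2 fold change 3.68, SE 0.21, adjusted p = 2.12e-05), while TYR and MLANA had 0 counts in all 6 libraries.

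Tested against A375 in the model of 18 libraries, the response of WM164 was more negative in 6 members and more positive in 0 (all genes 4.69% and 4.52%). These were CD63, with a difference of -0.86 on the log2 scale (adjusted p = 3.66e-05), CTSB of -0.56 (0.00123), ASAH1 of -0.44 (0.00437), CTSD of -0.60 (0.00671), CTSL of -0.50 (0.019) and ATP6V0C of -0.42 (0.044). The response of SKMEL28 was more negative than that of A375 in 5 members and more positive in 2 (all genes 5.83% and 3.68%). CTSB differed by -0.89 (adjusted p = 6.72e-06), CTSL by -0.69 (0.00164), NPC1 by -0.56 (0.00328) and PSAP by -0.39 (0.0267), and GLB1 was the fifth. LAMP2 and TPP1 differed by 0.66 (9.95e-04) and 0.43 (0.0299). With 1 library left out, the calls of PSAP and TPP1 each ended in 6 of the 12 fits and that of GLB1 in 9, and all 3 ended with the replicate block and with only the libraries of the lines compared. These comparisons share the A375 libraries. The 7 calls of SKMEL28 against A375 fell to 4 without replicate 1 or 2 of the A375 GFP libraries or without replicate 1 of the SKMEL28 GFP libraries, and to between 1 and 3 on the TPM scales; those of WM164 against A375 fell to 2 and 1 on the TPM scales.

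The promoters of the members were read from RefSeq windows of GRCh38.p14 that run from 250 bases before to 50 bases after the start of each gene, of which 24 of the 37 members had at least 1. Both strands were searched for TCACGTGA, the palindromic core of the CLEAR element, and for CACGTG, the E-box within it. They were also searched for CATGTG, the core of the M-box. The remaining motifs were TGCTGAC and TGACNNNGC, the MAF half-site and the core bound by small MAF and CNC partners (TGCTGAC and TGACNNNGC can overlap). TCACGTGA was in 6 of the 24 members (25%), LAMP1, MCOLN1, CTSA, GAA, ATP6V0D1 and ATP6V1G1, against 1.18% of 27305 genes with a window. CACGTG was in 10 (41.7%), which adds CD63, CTSD, CTSF and NEU1, against 8.77% of genes. CATGTG was in 5 (20.8%, against 13.4%), TGCTGAC in 1 (4.17%, against 5.14%) and TGACNNNGC in 12 (50%, against 16.1%). The members were chosen as genes regulated by MITF and the TFE factors, so that the choice itself favours the E-boxes of these factors. The shares describe the chosen genes and test nothing. For the 6 genes with TCACGTGA, the match that lies farthest upstream is shown with 60 bases on either side, ending no more than 20 bases past the annotated start. CD63 and CTSD are shown in the same way with CACGTG, since CD63 had the smallest adjusted p of the members in WM164 and CTSD differed widely in level between the lines. These 8 were chosen after their values had been seen. The sequences run 5′ to 3′ on the strand of the gene, and capitals mark TCACGTGA in the 6 and CACGTG in the last 2.
LAMP1, chr13:113297150-113297258, plus strand: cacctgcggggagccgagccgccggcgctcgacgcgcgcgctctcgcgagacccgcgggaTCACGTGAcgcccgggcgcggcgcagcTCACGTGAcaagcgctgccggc
MCOLN1, chr19:7522522-7522643, plus strand: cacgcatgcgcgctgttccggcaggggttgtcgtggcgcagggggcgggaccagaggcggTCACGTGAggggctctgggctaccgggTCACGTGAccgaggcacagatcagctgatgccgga
CTSA, chr20:45891249-45891354, plus strand: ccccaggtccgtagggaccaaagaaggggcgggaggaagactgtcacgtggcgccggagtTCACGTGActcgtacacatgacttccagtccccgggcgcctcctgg
GAA, chr17:80101444-80101571, plus strand: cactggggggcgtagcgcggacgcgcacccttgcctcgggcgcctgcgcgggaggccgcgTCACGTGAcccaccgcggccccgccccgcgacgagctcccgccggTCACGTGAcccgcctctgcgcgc
ATP6V0D1, chr16:67481150-67481277, minus strand: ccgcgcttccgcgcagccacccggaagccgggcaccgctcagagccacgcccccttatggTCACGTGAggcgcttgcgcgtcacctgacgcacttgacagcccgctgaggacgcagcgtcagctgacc
ATP6V1G1, chr9:114587650-114587777, plus strand: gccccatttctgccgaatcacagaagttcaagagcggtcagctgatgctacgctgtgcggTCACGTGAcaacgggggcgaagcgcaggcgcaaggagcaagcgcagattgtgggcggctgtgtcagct
CD63, chr12:55729124-55729249, minus strand: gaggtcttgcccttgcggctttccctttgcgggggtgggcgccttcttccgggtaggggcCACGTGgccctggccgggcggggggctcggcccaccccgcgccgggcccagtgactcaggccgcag
CTSD, chr11:1763909-1764034, minus strand: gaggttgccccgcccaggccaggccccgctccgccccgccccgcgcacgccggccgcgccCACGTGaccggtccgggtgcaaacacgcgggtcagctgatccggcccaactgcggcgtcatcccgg

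In LAMP1, MCOLN1 and GAA the stretch holds TCACGTGA in 2 copies. The first match begins 29, 42, 26, 77, 60 and 59 bases before the annotated start in the 6 genes, in the order shown, and CACGTG begins 180 bases before the start of CD63 and 47 before that of CTSD. A match describes the letters and not a bound site. In WM164, 3 of the 6 members with TCACGTGA in the window were lower (LAMP1, MCOLN1 and ATP6V0D1; median log2 fold change -0.15), as were 11 of the 17 tested members whose window lacks it (median -0.23). In SKMEL28, 4 of the 6 were lower (MCOLN1, CTSA, GAA and ATP6V0D1) and 0 higher, and of the 18 without it 4 were lower and 2 higher. All 4 of those calls in SKMEL28 are among the ones lost with a single library left out. CTSB, CTSK, LAMP2, PSAP and ASAH1, on which the results turn, had no entry and were not searched.

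The GFP cells of the 3 lines also differed in these genes. In them, A375 had lower levels than WM164 in 29 of 37 members and higher levels in 5, and lower levels than SKMEL28 in 30 and higher in 3 (edgeR, adjusted p of 0.05 or less, 18767 genes). Of all genes, 36.9% were lower and 34.6% higher in A375 than in WM164, and 35.3% lower and 33.3% higher than in SKMEL28. The median log2 ratio of the members was -1.11 against WM164 and -1.50 against SKMEL28, where all genes had -0.08 and -0.06. Both comparisons share the A375 libraries. In 26 members A375 was lower than in both other lines, and in 1, ATP6V1D, higher than in both. The share of all genes lower or higher in A375 than in both other lines was not computed. Among the 26, the call of CTSL against WM164 ended in every fit with 1 library left out (adjusted p = 0.0574 to 0.134). On log2(TPM + 0.1) 19 members were lower in A375 than in WM164. Summed over the 37 members, the level in GFP cells was 2062 to 2195 CPM in A375, 6062 to 6299.8 in WM164 and 7889.9 to 8383 in SKMEL28 (normalized over 18 libraries). Per length, the sum was 1349.7 to 1572 TPM in A375, 2385 to 2993 in WM164 and 5450.1 to 5618 in SKMEL28, so the order of the lines was the same on both scales and the ranges of the lines did not overlap on either.

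The enzymes and membrane proteins differed most. Of the 24 members outside the V-ATPase, 23 were lower in A375 than in WM164 and 1 higher, with a median log2 ratio of -2.01, and 21 were lower than in SKMEL28 and 2 higher, with a median of -1.94. ASAH1 stood at 11.3, 11.7 and 11.5 CPM in A375, 127, 133 and 139 in WM164 and 306, 297 and 307 in SKMEL28 (log2 ratio -3.52 and -4.72; adjusted p = 1.61e-19 and 4.85e-21). PSAP stood at 97.6, 97.8 and 106 CPM in A375 and 1018, 1131 and 1024 in WM164 (log2 ratio -3.40, adjusted p = 2.31e-18). CTSD stood at 86.8, 88.7 and 114 CPM in A375 and 1431, 1338 and 1417 in SKMEL28 (log2 ratio -3.85, adjusted p = 1.49e-17). The libraries of the lines did not overlap in any of these genes. CTSF, cathepsin F, was near 0 in A375, at 0.782, 0.625 and 0.195 CPM against 20.5, 21.7 and 19.4 in WM164 and 19.3, 16.5 and 15.9 in SKMEL28 (log2 ratio -5.24 and -4.99; adjusted p = 6.24e-13 and 1.53e-12). CTSK had 0, 0 and 12 counts in the A375 GFP libraries, 12 in all, and its pooled level was 206 times (95% exact counting interval 117 to 399) higher in WM164 and 447 times (95% exact counting interval 256 to 866) higher in SKMEL28, intervals that cover counting error only.

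CTSZ, cathepsin X, was the exception among the enzymes. It had 3 counts in all in the WM164 GFP libraries, and its pooled level was 2807 times (95% exact counting interval 960.2 to 13613) higher in A375 and 8022 times (95% exact counting interval 2745 to 38904) higher in SKMEL28. Its libraries stood at 104, 93.7 and 105 CPM in A375 and 306, 267 and 286 in SKMEL28, so that it was near 0 in WM164 alone. GUSB and LAMP1 were higher in A375 than in SKMEL28 (log2 ratio 0.75 and 0.58; adjusted p = 2.91e-07 and 3.48e-06) and lower than in WM164 (-1.24 and -0.38; 7.89e-11 and 3.97e-04), although LAMP1, with NPC1, CTSL, GLA and ATP6V1C1, had a positive ratio of A375 to WM164 on the TPM scales.

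The V-ATPase genes differed less. Of these 13, 6 were lower and 4 higher in A375 than in WM164 (ATP6V0C, ATP6V0D1, ATP6V1D and ATP6V1G1), with a median log2 ratio of -0.08. Of all genes, 36.9% were lower and 34.6% higher there, with a median of -0.08, so that the V-ATPase genes were near all genes. Against SKMEL28, 9 were lower and 1 higher, with a median of -0.72, where 35.3% of all genes were lower and 33.3% higher, with a median of -0.06. ATP6V0C was at 330.2, 368 and 384 CPM in A375, 322, 283 and 306 in WM164 and 337, 302 and 336 in SKMEL28, and ATP6V1A, the catalytic subunit, at 62.6, 71.1 and 62.2, 63.8, 70.8 and 72.6 and 63.3, 56.5 and 66.7. The 3 lines overlapped in ATP6V1A, and in ATP6V0C SKMEL28 overlapped both others while A375 lay just above WM164 (log2 ratio 0.25, adjusted p = 0.0197). That call ended without replicate 2 of the WM164 libraries (adjusted p = 0.0957) or replicate 2 or 3 of the A375 libraries (0.0549 and 0.0843). ATP6V0D1 was higher in A375 than in WM164, at 44.9, 49.1 and 51.8 against 28.5, 34.0 and 32.1 CPM (log2 ratio 0.63, adjusted p = 4.90e-05), as was ATP6V1G1 (0.39, 1.68e-04). ATP6V1D was at 31.6, 36 and 28.3 CPM in A375, 26.1, 25.1 and 28.8 in WM164 and 25.1, 27.8 and 24.3 in SKMEL28 (log2 ratio 0.26 and 0.31; adjusted p = 0.0285 and 0.0111), calls that ended without replicate 2 of the A375 libraries (adjusted p = 0.183 and 0.0897), and the ratio to SKMEL28 was -0.07 on TPM rescaled to nuclear protein-coding genes. The 5 members called higher in A375 than in WM164 became 3 without replicate 2 of the A375 or of the WM164 libraries, 8 on the TPM scales, where all genes were shifted by 0.35 and 0.46, and 2 on the rescaled TPM. Per length, ATP6V0C was the most abundant member in A375 GFP cells, at 420.4, 429.9 and 371 TPM, followed by CD63 at 209, 207 and 196, whereas CD63 led in WM164 at 711, 855 and 846 TPM and CTSD in SKMEL28 at 1282, 1265 and 1317.

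**Figure D4:**
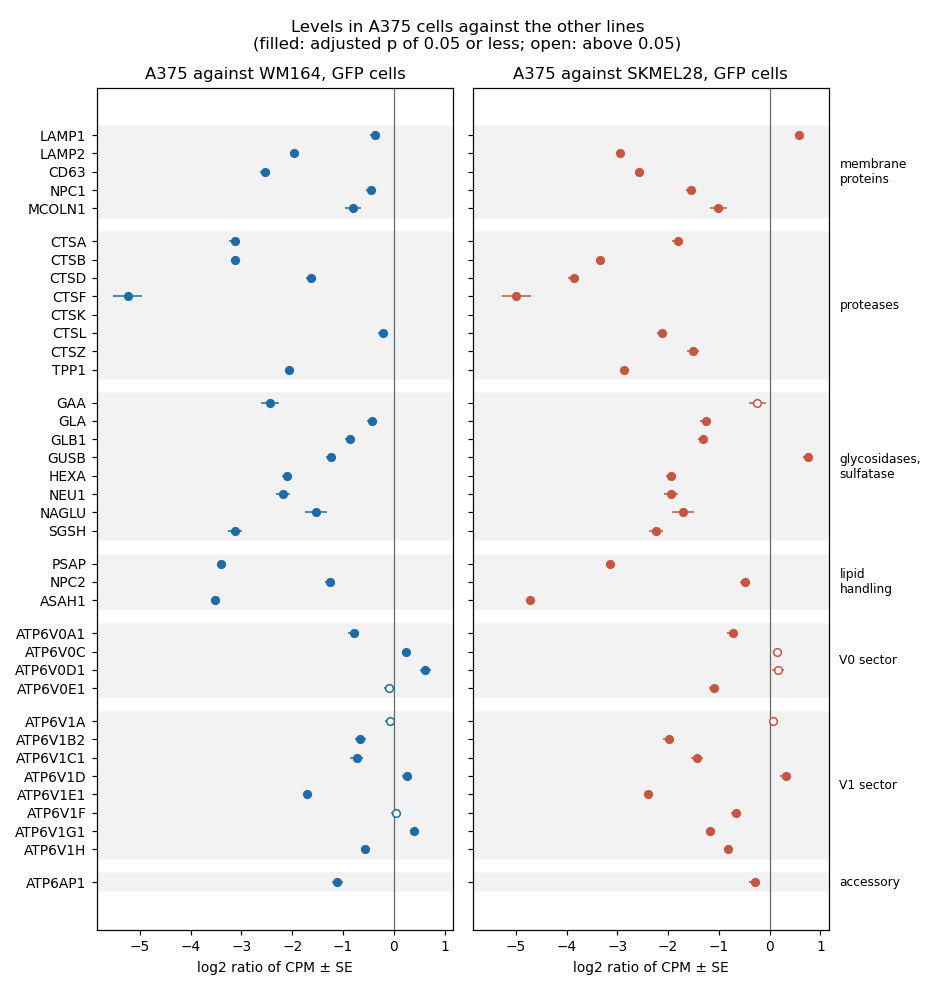
Log2 ratio of CPM in A375 to WM164 (left) and to SKMEL28 (right) in GFP cells, with SE, for each member by role (3 libraries per line; filled points have an adjusted p of 0.05 or less). Proteases, glycosidases and lipid-handling genes lie mostly between -1 and -5, and V-ATPase genes nearer to 0; CTSK in both panels and CTSZ in the left one are not drawn, since 1 of the lines had 12 counts or fewer.

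WM164 and SKMEL28 differed in both directions. Of the 37 members, 19 were lower and 8 higher in WM164 than in SKMEL28 (all genes 29% and 27.8%), with a median log2 ratio of -0.22. GAA stood at 129, 131 and 112 CPM in WM164 and 27.4, 27.9 and 25.8 in SKMEL28 (log2 ratio 2.20, adjusted p = 5.95e-10). GUSB, CTSA and LAMP1 were also higher in WM164, by log2 ratios of 1.99, 1.32 and 0.96 (adjusted p = 1.98e-13, 3.19e-10 and 4.43e-09). CTSD showed the reverse, at 326, 291 and 278 CPM in WM164 and 1431, 1338 and 1417 in SKMEL28 (log2 ratio -2.23, adjusted p = 1.30e-13). CTSL and ATP6V1G1 were lower in WM164 by log2 ratios of -1.90 and -1.57 (adjusted p = 6.16e-13 and 9.60e-13). On the TPM scales 28 members were lower and 4 higher, with all genes shifted by -0.42 and -0.54.

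The factors of the MiT/TFE family differed between the lines and, in part, with MAFG. MITF was at 399.9, 415 and 429 CPM in the GFP libraries of WM164 and 265, 266 and 261 in the MAFG libraries (log2 fold change -0.65, SE 0.05, adjusted p = 1.55e-08). In SKMEL28 it was at 627, 607 and 622 and 529, 536 and 554 CPM (log2 fold change -0.20, SE 0.05, adjusted p = 0.00967), a call that ended without replicate 1 or 2 of the MAFG libraries (adjusted p = 0.0536 and 0.0525) and in the fit of 18 libraries. The groups did not overlap in either line, and the fall was larger in WM164 by -0.45 on the log2 scale (adjusted p = 0.0396). In A375 MITF was at 32.1, 30.1 and 33.1 and 31.5, 36.3 and 23.1 CPM, with overlap (adjusted p = 0.997). TFE3 was at 20.2, 24.3 and 21.5 CPM in the GFP libraries and 17.3, 16.5 and 16.5 in the MAFG libraries in WM164 (log2 fold change -0.39, SE 0.09, adjusted p = 0.00265), but at a log2 fold change of -0.07 and -0.08 on the TPM scales, where it was not called. In SKMEL28 it was at 19.4, 17.5 and 18.2 CPM in the GFP libraries and 19.2, 19.5 and 17.9 in the MAFG libraries (adjusted p = 0.805), and in A375 at 89.7, 96.4 and 103 CPM in the GFP libraries and 98.8, 71.9 and 69.6 in the MAFG libraries (adjusted p = 0.92). TFEB was at 3.75, 3.0 and 2.50 CPM with GFP and 2.85, 2.31 and 2.80 with MAFG in WM164 and at no more than 24 counts in any library of the other lines, and TFEC had at most 18 counts in any library.

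Most melanosome genes that MITF drives fell in WM164 as well. Of 9 markers, which take in MITF itself and SOX10, a factor that acts on it, 6 of 8 tested were lower and 1 higher in WM164. MLANA, the melanocyte antigen, was at 308, 323 and 311 CPM with GFP and 59.1, 61.1 and 57.5 with MAFG (log2 fold change -2.41, SE 0.06, adjusted p = 1.40e-15). DCT, SLC45A2, TYR and PMEL, genes of pigment synthesis and transport, were lower by log2 fold changes of -1.64, -1.57, -1.55 and -1.46. GPNMB went the other way, at 824 to 999 CPM with GFP and 980 to 1096 with MAFG (normalized over 18 libraries). In SKMEL28, 4 of 9 were lower and 2 higher. Of all genes, 15.6% were lower and 16.2% higher in WM164 and 15.3% and 14.6% in SKMEL28. The median log2 fold change of the markers was -1.51 in WM164 and -0.07 in SKMEL28. The part of these markers, or of MITF, in the values of the lysosome genes was not tested.

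Between the lines, MITF and TFE3 ran in opposite directions. In GFP cells MITF stood at 29.0, 27.1 and 29.7 CPM in A375, 422, 441 and 454 in WM164 and 656, 639 and 649 in SKMEL28, lower in A375 by log2 ratios of -3.94 and -4.50 (adjusted p = 2.98e-17 and 5.31e-18). TFE3 stood at 80.9, 87.0 and 92.5 CPM in A375, 21.3, 25.8 and 22.7 in WM164 and 20.3, 18.5 and 19.0 in SKMEL28, higher in A375 by 1.90 and 2.17 (adjusted p = 1.36e-11 and 2.05e-12). The lines were apart in every library. Of the 18 genes of the family and its control at the lysosome (Rag GTPases, folliculin and its partners, the Ragulator and mTOR), 17 were tested in WM164 and A375 and 16 in SKMEL28. With MAFG, 10 were lower and 0 higher in WM164, 3 lower and 1 higher in SKMEL28, and 0 were called in A375. Of all genes, 15.6% were lower and 16.2% higher in WM164 and 15.3% and 14.6% in SKMEL28, so that the 3 of 16 in SKMEL28 were near the share of all genes.

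**Figure D5:**
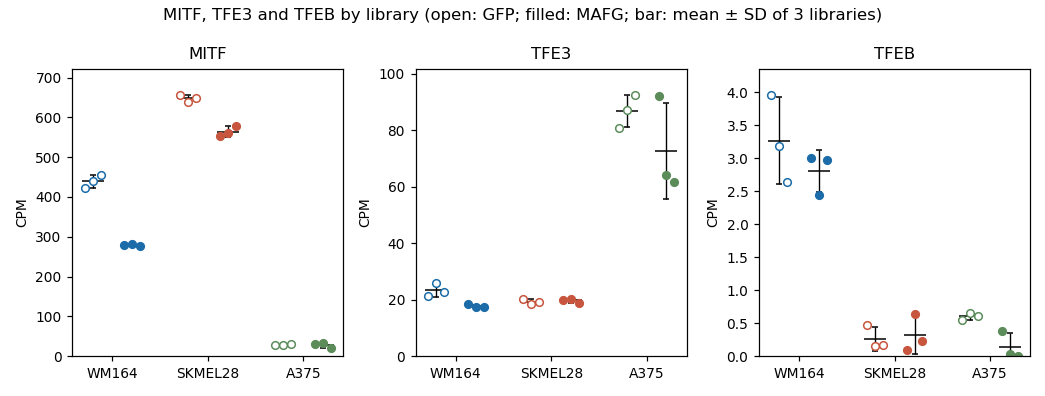
CPM of MITF, TFE3 and TFEB in each library, normalized over 18 libraries (open points GFP, filled points MAFG, bar the mean ± SD of 3 libraries; the vertical axes start at 0 and differ between panels). MITF falls with MAFG in WM164 and, less, in SKMEL28 and is near 30 CPM in A375, where TFE3 is highest.

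Lysosomal genes outside the 37 members moved in both directions. Of 88 further genes (other V-ATPase subunits, hydrolases and activators, membrane proteins and genes that sort enzymes to the lysosome), 82 were tested in WM164, of which 28 were lower and 8 higher and the median log2 fold change was -0.12. In SKMEL28 28 of 81 were lower and 12 higher, with a median of -0.10, and in A375 0 of 82 were called. Of all genes in SKMEL28, 15.3% were lower and 14.6% higher, so that the 12 higher were near the share of all genes. In A375, 0.78% of all genes were higher and 0.0634% lower. By group, 5 of 11 other V-ATPase subunits were lower and 1 higher in WM164, 13 and 4 of 32 hydrolases, 5 and 3 of 26 membrane proteins and 5 and 0 of 13 sorting genes. Of all genes in WM164, 15.6% were lower and 16.2% higher, and the share of the membrane proteins was near that. Of 15 autophagy genes of the CLEAR network tested in WM164, 6 were lower and 0 higher, and of 16 in SKMEL28 5 and 1.

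A few of these passed a fold change of 2. In WM164, LGMN, the asparaginyl endopeptidase legumain, rose, at 72.7, 70.5 and 73.0 CPM with GFP and 144, 161 and 155 with MAFG (log2 fold change 1.09, SE 0.06, adjusted p = 1.00e-10). CD68, a heavily glycosylated lysosomal membrane protein of phagocytes, fell, at 130.4, 121 and 116 CPM with GFP and 54.8, 51.7 and 48.5 with MAFG (log2 fold change -1.24, SE 0.07, adjusted p = 7.58e-11). In both genes the groups were far apart. LAPTM5, a lysosomal membrane protein best known from blood cells, rose from a low level, at 1.59, 1.31 and 1.42 CPM with GFP and 10.2, 9.40 and 8.65 with MAFG (log2 fold change 2.71, SE 0.17, adjusted p = 7.93e-10). The minor V-ATPase subunits ATP6V0D2 and ATP6V1C2 had log2 fold changes of -1.02 and 1.66 (adjusted p = 6.37e-04 and 0.019), both at levels of 5.67 CPM or less. That of ATP6V1C2 was not called without replicate 2 of the MAFG libraries (adjusted p = 0.196) or replicate 1 or 3 of the GFP libraries (0.088 and 0.0501). In SKMEL28, CTSH, the aminopeptidase cathepsin H, fell, at 79.9, 69.2 and 76.4 CPM with GFP and 33.6, 34.2 and 38.3 with MAFG (log2 fold change -1.09, SE 0.07, adjusted p = 2.60e-08), and PLD3, a lysosomal exonuclease, fell, at 54.5, 54.1 and 45.0 CPM with GFP and 28.0, 24.1 and 23.0 with MAFG (log2 fold change -1.03, SE 0.09, adjusted p = 6.31e-07). Neither overlapped between the groups. CTSS, LAMP3 and LAPTM5 also passed there (log2 fold change -1.21, 1.01 and 1.21), all at levels of 3.34 CPM or less, and each lost the call when some single library was left out.

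Some values are less certain for reasons of counting. The sources differ on whether the library kit kept strand, and the strand setting of the counting is not given in the sources used here. GENCODE 44 places 13 of the 37 members over another protein-coding gene, NPC1 with RMC1 and CTSZ with NELFCD on the opposite strand among them. CTSL has 7 annotated pseudogenes with its name, GUSB 21, ATP6V1G1 7, ATP6V0C and ATP6V0E1 4 each and ATP6V1E1 3, and reads that align equally well to such a copy are not counted when only unique alignments are kept.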

How the data were processed

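RNA of melanoma cells was sequenced in 18 libraries (3 in each of 6 groups), and the count matrix and the TPM matrix deposited by the authors were used, both with 58870 genes. The authors trimmed reads with cutadapt (1.8.1), aligned them to GRCh38 with STAR (2.7.7a) and counted uniquely aligned reads per gene, so that the deposited counts are raw. The deposited TPM values are scaled to each library's total over all genes. RSEM (1.3.0) is named in the submitters' processing notes, and which tool made the TPM is not given in the sources used here. No column of a sample was left unused.

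The 37 members, the gene lists and the tests were chosen with earlier results of these data known. Counts were filtered (filterByExpr), normalized (TMM) and tested with the quasi-likelihood F test of edgeR (4.0.16, R 4.3.3), with Benjamini-Hochberg adjustment over all genes tested. Genes with an adjusted p up to 0.05 were called. The response to MAFG was fitted on the 6 libraries of a line, and differences between lines and the GFP comparisons in 1 model of 18 libraries. The SE is the log2 fold change divided by the square root of F. CPM are counts scaled to the normalized library size, within a line unless stated. Ratios of a gene with few counts carry exact binomial intervals of 95%, which cover counting error only. Depth was 20122172 to 39025042 counts per library. The edgeR fit of the response within a line was tested on simulated data. The differences between lines, the GFP comparisons, DESeq2 and limma were not.

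Alternatives were DESeq2 (1.42.0), its size factors in edgeR, no filter, at least 10 counts in every library, all 18 libraries in 1 model, only the groups compared, a replicate block, each library left out, a fold change above 2, and limma (3.58.1) on log2(TPM + 1) and log2(TPM + 0.1) of the deposited TPM, for genes with a TPM of 1 in at least 3 libraries. A rescaling of TPM to nuclear protein-coding genes and edgeR on those genes alone were added after the data had been seen. Same-numbered libraries did not deviate together (correlations of -0.040 to 0.030), so that no pairing by number was seen. This check cannot show whether they were prepared together. Named with values were the 6 called members of smallest adjusted p per response or difference, those past a fold change of 2, the 4 largest ratios per direction between GFP lines, the 4 MiT/TFE factors and listed genes past a fold change of 2. Other members named as examples of their role were chosen after their values had been seen.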

Additional observations from a re-analysis of the deposited data

Results flagged for a closer look

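The response to MAFG differed between lines in the members below, by the contrast tested in the model of 18 libraries (edgeR's quasi-likelihood test, adjusted p of 0.05 or less over 18767 genes). Each value is the log2 fold change in the first line minus that in the second. WM164 minus SKMEL28 was -0.82 for LAMP2, -0.47 for ASAH1, -0.56 for TPP1, -0.50 for CD63, 0.49 for NPC1 and -0.51 for ATP6V1H. In LAMP2 and ATP6V1H all MAFG libraries were lower than the GFP libraries in WM164 and all were higher in SKMEL28.

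WM164 minus A375 was -0.86 for CD63, -0.56 for CTSB, -0.44 for ASAH1, -0.60 for CTSD, -0.50 for CTSL and -0.42 for ATP6V0C. The call of ATP6V0C ended in 8 of the 12 fits with 1 library left out, and that of CTSL in 1 of them. SKMEL28 minus A375 was -0.89 for CTSB, 0.66 for LAMP2, -0.69 for CTSL, -0.56 for NPC1, -0.39 for PSAP and 0.43 for TPP1. Of these, PSAP and TPP1 each lost the call in 6 of the 12 fits with 1 library left out, with the replicate block and with only the libraries of the lines compared. The last 2 sets share the A375 libraries. No explanation was tested.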

How the results depend on the processing

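Counts of members called moved with the scale, for which the cause was not tested, and with the limit on fold change. In WM164 25 were lower, but 3 on log2(TPM + 1), 1 on log2(TPM + 0.1), 10 on TPM rescaled to nuclear protein-coding genes, 14 with all 18 libraries in 1 model and 1 with a fold change above 2 (20 to 25 with a library left out). In SKMEL28 13 were lower, but 4 on rescaled TPM, 7 with all 18 libraries and 0 past the fold (7 to 12), and 4 were higher, but 2, 1 and 2 on the 3 TPM scales and 0 past the fold (3 to 4). WM164 and SKMEL28 differed in 9, but in 3, 2 and 5 on the TPM scales, 14 with only their own libraries and 0 past the fold (7 to 9). WM164 and A375 differed in 6, but in 2 and 1 on the TPM scales with either pseudocount and 0 past the fold (4 to 8). SKMEL28 and A375 differed in 7, but in 3, 1 and 3 on the TPM scales, 4 with only their own libraries and 0 past the fold (4 to 9). In GFP cells 29 were lower in A375 than in WM164, but 19 on log2(TPM + 0.1) and 19 past the fold (28 to 28), and 5 higher, but 3 where each library held 10 counts or more, 8, 8 and 2 on the TPM scales and 1 past the fold (3 to 5). Against SKMEL28, 30 were lower in A375 (29 to 30) and 3 higher, with 0 past the fold (2 to 3). In WM164 against SKMEL28 19 were lower, 9 past the fold (18 to 19), and 8 higher, but 4 and 4 on TPM with either pseudocount and 3 past the fold (8 to 8). A375 responses had 0 calls throughout.

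Signs turned on TPM, with the values on log2(TPM + 1) and log2(TPM + 0.1) in this order. In WM164 these were LAMP1 (0.0016 and 0.0017), LAMP2 (0.0035 and 0.0039), GLB1 (0.072 and 0.077), GUSB (0.029 and 0.030), PSAP (0.0276 and 0.0277), ATP6V1C1 (0.067 and 0.072) and TFEB (0.17 and 0.27, and 0.13 on rescaled TPM), and in SKMEL28 TFE3 (-0.17 and -0.20, and -0.069 rescaled). In A375 against WM164 they were LAMP1 (0.12 and 0.13), NPC1 (0.12 and 0.12), CTSL (0.33 and 0.34), GLA (0.12 and 0.13) and ATP6V1C1 (0.046 and 0.041). PSAP in WM164 against SKMEL28 was -0.37 on both, and ATP6V1D in A375 against SKMEL28 was -0.069 on rescaled TPM.

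With the replicate block the counts lower and higher were 25 and 0 in WM164, 14 and 4 in SKMEL28 and 0 and 0 in A375, and the differences numbered 8, 5 and 4 in the order above. By their labels, such samples share only a number. The spread of the A375 libraries limits that line: the median SE of a response was 0.13, against 0.06 and 0.07, although they held 32979834 to 39025042 counts, against 20122172 to 34848421 in the other lines.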
